A study of Mus musculus with 12 samples.

Results

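A set of 46 mouse genes for nucleolar ribosome biogenesis factors was examined across 4 groups of AML12 cells. The genes were taken by symbol, and all 46 were among the 24824 genes of the deposited table and among the 10615 genes kept for testing (mean FPKM of 1 or more). By role, 7 belong to RNA polymerase I (Pol I) transcription, 3 to the box C/D small nucleolar ribonucleoproteins (snoRNPs), 4 to the H/ACA snoRNPs, 17 to processing of the small ribosomal subunit, 10 to assembly of the large subunit and 4 to nucleolar scaffold proteins, with Myc as the remaining gene.

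Ribosomes are built in the nucleolus. Pol I copies the ribosomal DNA into a long precursor RNA, box C/D snoRNPs methylate that precursor and H/ACA snoRNPs convert uridines to pseudouridines, and large sets of processing factors then cut, fold and export the small and large subunits. The MYC protein is a transcription factor known to activate many of these genes, and growing cells spend much of their energy on this pathway.

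The AML12 line was made from hepatocytes of a mouse carrying a transgene for transforming growth factor alpha. Cells of group A had no agent added. Those of group B were given 300 μM CuCl2 and 40 nM elesclomol, a compound that carries copper into cells (together Cu/ES), those of group C both of these and 1000 μM taurocholic acid (TCA, a bile acid), and those of group D only the 1000 μM TCA, for 24 h in every group. The labels give every sample as wild type. Each group had 3 libraries of polyadenylated RNA, and the labels do not say whether these were separate cultures, so the p-values measure the spread between these libraries, which may be technical.

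Values are FPKM, fragments scaled to gene length and to library total. Read totals, worked back from the steps between FPKM values, were 38.3 to 39.1 M (M for mega) for the libraries of A, 30.8 to 32.0 M for B, 29.1 to 34.9 M for C, and 39.4 to 39.8 M for D. Group A had 10805 to 10893 genes with an FPKM of at least 1, group B 8458 to 8576, group C 8490 to 8711 and group D 10570 to 10664. The 10 most abundant genes of a library took 4.69% to 5.17% of its reads in groups A and D and 11.4% to 12.9% in groups B and C. Of 8 hepatocyte markers, 7 were in the table, and only Krt8 and Krt18 reached a mean FPKM of 1 over all 12 libraries. The same cut over all 12 libraries is meant where markers of the other lists are given as above 1. The mean FPKM of Alb, which encodes albumin, was 0 in groups A, C and D and 0.0463 in group B, that of Hnf4a was at most 0.0192 and that of Apob at most 0.0116, while Apoa1 was at 0.00863, 1.86, 1.11 and 0 in A to D, so most defining hepatocyte markers were at or near 0. Summed marker levels differed between the groups: the hepatocyte list, nearly all of it keratins, ran from 596 to 649 FPKM in A, from 236 to 287 in B, from 172 to 209 in C and from 697 to 717 in D. The 5 markers of stellate cells or fibroblasts, with Col1a1 and Col3a1 above 1, summed to 132 to 195 in A, 2.76 to 4.98 in B, 1.08 to 1.88 in C and 114 to 176 in D. The 4 cholangiocyte markers, with Krt19 and Sox9 above 1, summed to 230.5 to 326 in A, 111 to 139.9 in B, 130.5 to 136 in C and 158 to 246 in D. These markers went opposite ways. Mean FPKM in A to D was 268, 77.3, 80.8 and 203 for Krt19 and 10.6, 50.9, 52.4 and 8.50 for Sox9. The 3 endothelial markers, with Pecam1 above 1, summed to at most 0.292 in A and D, 5.68 to 9.89 in B and 14.5 to 18.7 in C, and 3 of 4 macrophage markers in the table summed to at most 0.572 in any library. The part of these shifts in the results for the nucleolar genes was not tested, and in bulk RNA fewer cells of a type and less RNA per cell cannot be told apart.

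All 46 genes were expressed in untreated cells. In group A their mean FPKM ran from 2.11 for Rrp12, a factor for export of the small subunit, to 1026 for Npm1, the abundant nucleolar phosphoprotein nucleophosmin, with a median of 18.6. In the treated groups the median was 23.4 (B), 19.4 (C) and 26.2 (D). No gene had its highest group mean in A. The highest mean was in D for 24 genes, in B for 13 and in C for 9, while the lowest was in A for 24, in C for 16, in B for 5 and in D for 1. The 7 Pol I genes were all highest in D. The 10 large-subunit genes were divided, 5 of them highest in B and 5 in D. Npm1 was first in every group, and behind it came Mybbp1a in groups A and D (94.0 and 119.9 FPKM) and Nop58 in groups B and C (219.8 and 198 FPKM). Mybbp1a encodes a nucleolar protein that binds Myb and Pol I, and Nop58 a core box C/D snoRNP protein.

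Differences were tested with limma on log2(FPKM + 1), all 12 libraries entering a single fit, with two-sided p-values adjusted over all 10615 genes by the Benjamini-Hochberg method. Past both thresholds means an adjusted p below 0.05 together with a log2 fold change larger than 1 in size. Fold changes on this scale understate the change of genes with low values. An exact permutation test of 3 libraries against 3 cannot go below p = 0.1, the value given by groups that do not overlap. Groups B vs. A and C vs. B share the libraries of B, and B vs. A and D vs. A share those of A.

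The group B vs. A comparison asks what Cu/ES did to these genes. The set divided: 12 genes were higher and 8 lower past both thresholds, where 10.1% of all tested genes were higher and 53.0% lower. At the adjusted p alone 25 rose and 17 fell (20.1% and 72.0% of all tested genes), and 26 were higher and 17 lower with no overlap between the libraries of the groups (20.5% and 72.4%). The median log2 fold change was 0.28 for the 46 genes and -1.10 for all tested genes. The direction of many changes moved with the scaling of the libraries: over FPKM as deposited, TPM, median-ratio size factors and quantile normalization, 19 genes were positive in all 4, 6 were negative in all 4 (Polr1b, Dkc1, Nop10, Wdr36, Rrp1b and Myc) and 21 changed sign. Of all genes past both thresholds, 16.0% were higher in the deposited values, 11.2% in TPM, 50.4% with median-ratio size factors and 48.3% with quantile normalization.

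**Figure D1:**
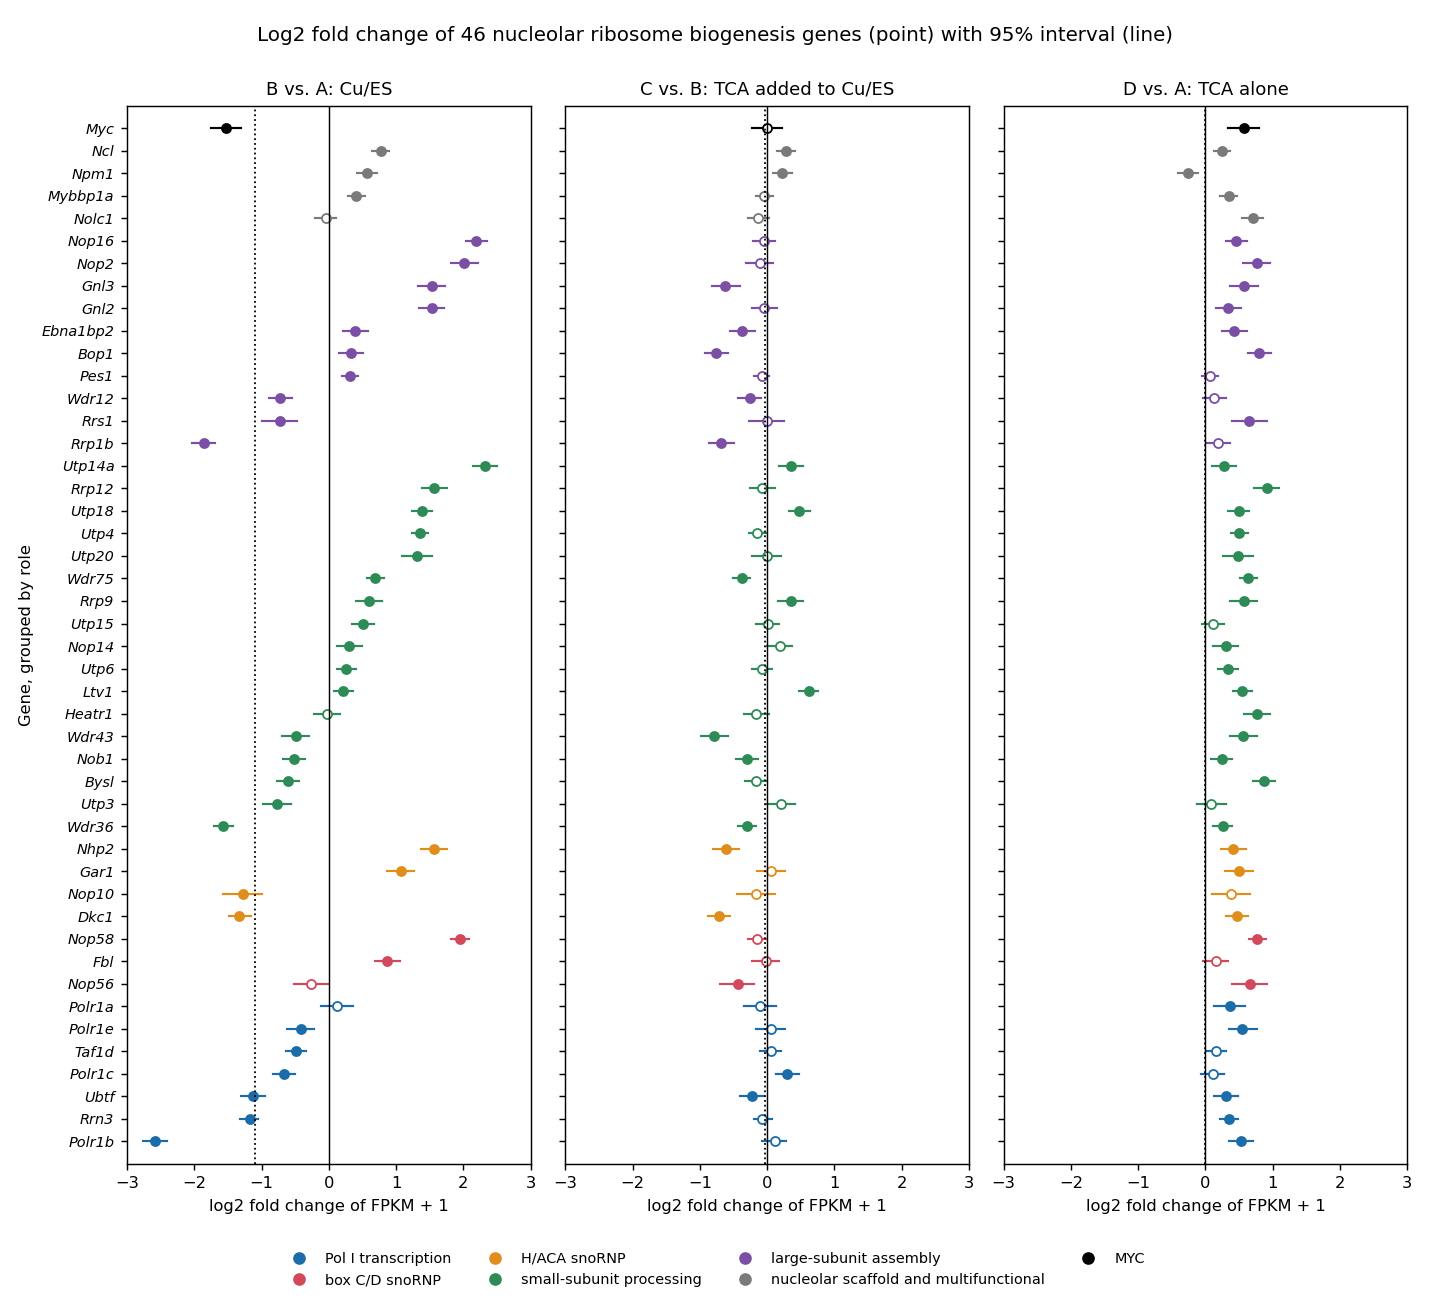
Log2 fold change of FPKM + 1 (x axis) of each of the 46 genes (y axis, coloured by role) in 3 comparisons, with Cu/ES (B vs. A), with TCA added to Cu/ES (C vs. B) and with TCA alone (D vs. A); points are limma estimates, filled at an adjusted p under 0.05, lines are 95% confidence intervals, and the dotted line is the median of all 10615 tested genes. Changes ran from -2.58 to 2.32 with Cu/ES, from -0.79 to 0.62 when TCA was added to Cu/ES, and from -0.26 to 0.91 with TCA alone, where 45 of 46 points were above 0.

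Of the 7 Pol I genes, 6 fell with Cu/ES at the adjusted p, 3 of them past both thresholds, and 1 did not pass, with a median log2 fold change of -0.67 (0.43 above the median of all genes). Only Polr1b kept a negative sign in all 4 scalings. Polr1b encodes the second-largest subunit, part of the catalytic core of Pol I. It measured 7.60, 6.91 and 6.85 FPKM in the libraries of group A, 0.379, 0.382 and 0.302 in B, 0.369, 0.454 and 0.553 in C, and 10.3, 11.1 and 10.7 in D. The Cu/ES libraries were far below the others, with 51 to 98 reads per library in B and C against 1470 to 2395 in A and D. The group mean in B was 0.0498 of that in A, and the log2 fold change was -2.58 ± 0.08 (SE, adjusted p = 8.02e-13), ranging from -3.51 to -1.29 over the scalings. Polr1a, the largest subunit, which forms the other side of the active site, measured 15.3, 15.3 and 14.5 FPKM in A, 17.6, 16.2 and 15.6 in B, 17.8, 12.3 and 15.8 in C, and 17.7, 21.4 and 19.6 in D. Its B vs. A value was 0.12 ± 0.11 (95% confidence interval -0.11 to 0.36, adjusted p = 0.290) and was negative in TPM, at -0.23. The libraries of A and B did not overlap for either gene, but only Polr1b was past both thresholds.

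Rrn3, the initiation factor that brings Pol I to the promoter, measured 20.3, 19.2 and 18.8 FPKM in A, 8.38, 7.89 and 7.80 in B, 7.42, 7.60 and 7.77 in C, and 24.5, 25.1 and 25.4 in D. Its libraries fell into separate low (B, C) and high (A, D) ranges, with D above A. In B vs. A it fell by 1.18 on the log2 scale (SE 0.06, adjusted p = 1.75e-10), a value that was 0.01 under median-ratio scaling. Ubtf, which binds along the ribosomal DNA repeats and keeps them open, had means of 15.9 ± 0.806 (SD, n = 3) in A, 6.74 ± 0.121 in B, 5.63 ± 0.669 in C and 19.9 ± 1.43 in D. It fell by 1.13 in B vs. A (SE 0.08, adjusted p = 7.99e-09), against 0.04 under median-ratio scaling. Relative to the median of all genes, Rrn3 was at -0.08 and Ubtf at -0.03. Polr1e, another Pol I subunit, had means of 2.48 ± 0.0737, 1.60 ± 0.283, 1.70 ± 0.274 and 4.12 ± 0.0431 FPKM in A to D and changed by -0.42 in B vs. A, but by 0.43 and 0.94 under median-ratio and quantile scaling.

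Promoters are shown for 3 of these genes with different changes, since MYC binds the E-box CACGTG: Nop2, a large-subunit factor described below, which rose with Cu/ES; Rrn3, which fell in the deposited values; and Polr1b, which had the largest fall. Given are the 250 bases before the start site on the gene's strand, from RefSeq on GRCm38.p6 (the build in the submitters' processing notes is GRCm39), with each E-box in capitals. Nop2 lies at chr6:125131633-125131882 (plus strand), Rrn3 at chr16:13780449-13780698 (plus) and Polr1b at chr2:129100746-129100995 (plus).
Nop2: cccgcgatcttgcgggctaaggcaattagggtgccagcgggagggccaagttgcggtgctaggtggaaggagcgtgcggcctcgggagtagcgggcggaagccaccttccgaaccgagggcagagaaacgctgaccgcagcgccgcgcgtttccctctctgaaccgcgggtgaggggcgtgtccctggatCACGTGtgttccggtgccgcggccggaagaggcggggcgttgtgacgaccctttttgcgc
Rrn3: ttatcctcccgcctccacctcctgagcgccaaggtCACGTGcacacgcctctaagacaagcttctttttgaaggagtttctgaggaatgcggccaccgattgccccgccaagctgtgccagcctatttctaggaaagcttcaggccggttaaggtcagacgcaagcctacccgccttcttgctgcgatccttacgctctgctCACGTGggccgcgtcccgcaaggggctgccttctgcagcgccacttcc
Polr1b: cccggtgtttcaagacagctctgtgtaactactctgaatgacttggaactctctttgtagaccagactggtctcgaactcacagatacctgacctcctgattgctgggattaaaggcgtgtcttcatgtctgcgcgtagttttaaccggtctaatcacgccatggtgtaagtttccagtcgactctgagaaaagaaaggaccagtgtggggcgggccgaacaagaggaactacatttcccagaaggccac
The E-box began 60 bases before the start site in Nop2, and 215 and 48 bases before it in Rrn3. None stood in the stretch from Polr1b. The end of the promoter window matched a GENCODE M21 transcript of the gene for Rrn3 and Polr1b, but not for Nop2. The distance in Nop2 therefore rests on the RefSeq start site alone. Promoter windows from 250 bases before to 50 after the start site were matched for 37 of the 46 genes (not for Fbl, Utp6, Wdr36, Rrp12, Bop1, Gnl2, Rrs1, Npm1 and Myc), and CACGTG, which reads alike on both strands, was in 9 of them (24.3%): Ltv1, Mybbp1a, Nop2, Pes1, Rrn3, Utp18, Utp20, Utp4 and Wdr43. In 3 of the 9, Nop2, Rrn3 and Utp18, it stood before the start site, and in the others only after it. CACGTG was in 12.1% of the windows of tested genes and 8.91% of those of protein-coding genes. The ETS-type motif CCGGAAG, on either strand, was in 13 of 37 (35.1%), against 21.9% of tested and 12.9% of protein-coding genes, and the canonical heat shock element, on either strand, was in 0 of 37, against 0.576% and 0.595%. Among matched genes past both thresholds in B vs. A, 4 of 10 higher and 1 of 6 lower genes held CACGTG, and 5 of 10 and 1 of 6 held CCGGAAG. The shares among all tested genes called in each direction were not computed. These few genes therefore cannot show a link of motif and direction. None of the 3 motifs contains another, and a match is a description of the letters only.

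The 3 box C/D genes did not move together with Cu/ES: 2 rose, 1 of them past both thresholds, and 1 did not pass the test. Nop58 measured 54.7, 58.8 and 55.2 FPKM in A, 219, 220.2 and 220.0 in B, 193, 208 and 194 in C, and 102, 97.2 and 91.2 in D. All 4 groups were apart from each other in the order A, D, C, B. The B mean was 3.91 times the A mean, and the log2 fold change was 1.95 ± 0.06 (adjusted p = 7.31e-13), above 0 in every scaling (1.59 to 3.22). Fbl encodes fibrillarin, the methyltransferase of the complex, and rose by 0.87 ± 0.09 (adjusted p = 3.10e-07; 0.50 to 2.14 over the scalings), from 88.0 ± 3.96 to 161 ± 9.55 FPKM. Nop56, the partner of Nop58 in the core, measured 25.9, 28.1 and 27.6 FPKM in A and 20.2, 26.5 and 21.5 in B. These ranges overlapped, the value was -0.26 ± 0.12 (95% confidence interval -0.52 to 0.00, adjusted p = 0.0549), and it was 0.98 and 0.37 under median-ratio and quantile scaling. With the replicate number as a block it passed (adjusted p = 0.0137).

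Past both thresholds, Nhp2 and Gar1 rose and Dkc1 and Nop10 fell among the 4 H/ACA genes, and these signs held in all 4 scalings. Dkc1, which encodes dyskerin, the pseudouridine synthase itself, measured 13.3, 14.0 and 13.6 FPKM in A, 4.61, 4.75 and 5.18 in B, 2.30, 2.69 and 2.69 in C, and 18.7, 20.3 and 19.0 in D. Its groups did not overlap, with C the lowest and D the highest. It fell by 1.33 in B vs. A (SE 0.08, adjusted p = 3.64e-10), and by 0.19 and 0.12 under median-ratio and quantile scaling, the latter with an adjusted p of 0.166. Nop10, a small structural protein of the complex, fell by 1.28 (SE 0.13, adjusted p = 2.97e-07), from 55.7 ± 0.962 to 22.5 ± 3.18 FPKM, and by 0.03 under median-ratio scaling (adjusted p = 0.842). Nhp2, which holds the RNA in the complex, measured 40.0, 39.9 and 44.0 FPKM in A, 118, 129 and 125 in B, 71.6, 94.7 and 77.6 in C, and 55.8, 54.5 and 55.8 in D. The groups did not overlap, in the order A, D, C, B. The ratio of means was 3.00 in B vs. A, with a log2 fold change of 1.56 ± 0.09 (adjusted p = 3.10e-10). Gar1, needed for release of the modified RNA, rose by 1.07 ± 0.10 (adjusted p = 6.05e-08), from 25.7 ± 1.48 to 55.0 ± 4.45 FPKM. The proteins of these genes act together in each H/ACA particle.

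Of the 17 small-subunit genes, 11 rose with Cu/ES (5 past both thresholds), 5 fell (1 past both) and 1 did not pass, with a median of 0.30. In the scalings 8 were positive and 1 negative in all 4. The largest rise of all 46 genes was in Utp14a, a nucleolar factor that activates a helicase late in small-subunit processing, with 13.0, 12.9 and 13.7 FPKM in A, 72.9, 61.7 and 75.3 in B, 92.5, 82.6 and 93.3 in C, and 17.2, 15.2 and 15.9 in D. The mean in B was 5.31 times that in A, and the log2 fold change was 2.32 ± 0.08 (adjusted p = 2.70e-12; 2.0 to 3.54 over the scalings). Groups A and D lay at the bottom of the range and group C at the top. Rrp12 measured 2.14, 2.20 and 1.98 FPKM in A, 7.61, 9.28 and 7.89 in B, 7.39, 8.67 and 7.39 in C, and 4.87, 5.0 and 4.70 in D. It rose 3.92-fold in B by the ratio of means (log2 fold change 1.57 ± 0.09, adjusted p = 3.36e-10).

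Wdr36, a WD-repeat protein of the small-subunit processome, was the only small-subunit gene to fall past both thresholds, with 33.8, 30.9 and 34.2 FPKM in A, 10.3, 10.4 and 10.8 in B, 8.61, 8.19 and 8.11 in C, and 39.2, 38.0 and 41.4 in D. Its change was -1.57 ± 0.07 (adjusted p = 1.29e-11) and -1.98 to -0.35 over the other scalings. Wdr43 and Wdr75 belong to the same subcomplex, which binds the start of the precursor RNA, and went different ways: Wdr43 changed by -0.49 ± 0.09 (43.1 ± 1.21 to 30.5 ± 4.07 FPKM; 0.76 under median-ratio scaling), while Wdr75 rose by 0.69 ± 0.06 (15.6 ± 0.493 to 25.7 ± 1.12) and was positive in every scaling. Utp3, Bysl and Nob1 had lower values in B in the deposited scale (-0.77, -0.61 and -0.52) and positive ones under median-ratio scaling (0.48, 0.48 and 0.73), and Bysl and Nob1 also under quantile normalization (0.75 and 0.01). Utp3 is a processome component, Bysl is bound to the maturing small subunit, and Nob1 is the nuclease that makes the last cut of the small-subunit RNA. Outside the genes given in full, 14 members had B vs. A changes from -0.72 to 1.53, of which 10 rose, 4 of them past both thresholds, and 3 fell.

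Among the 10 large-subunit genes, 7 rose (4 past both thresholds) and 3 fell (1 past both), with a median of 0.36. Nop2, a methyltransferase of the large-subunit RNA, measured 20.0, 19.0 and 18.1 FPKM in A, 73.8, 90.1 and 76.6 in B, 64.8, 82.2 and 75.5 in C, and 30.8, 34.8 and 33.1 in D. B and C overlapped and stood above D, which stood above A. Its change was 2.01 ± 0.09 (adjusted p = 4.42e-11), and the ratio of means was 4.21. Nop16, a component of early large-subunit particles, changed by 2.19 ± 0.07 (adjusted p = 1.44e-12), from 19.4 ± 0.750 to 92.4 ± 5.73 FPKM, and Gnl3, the GTPase nucleostemin, by 1.53 ± 0.10 (adjusted p = 1.04e-09), from 33.5 ± 1.23 to 98.8 ± 11.7. All 3 were positive in every scaling. Rrp1b, a nucleolar protein of the Rrp1 family, went the other way, with 11.5, 10.4 and 11.5 FPKM in A, 2.12, 2.57 and 2.31 in B, 1.08, 1.07 and 1.08 in C, and 12.1, 13.8 and 12.4 in D. It fell by 1.86 (SE 0.08, adjusted p = 2.20e-11) and by 0.54 to 2.40 in the other scalings. Bop1 and Pes1, which bind each other with Wdr12 in the PeBoW complex, rose slightly in the deposited values (0.33 and 0.31). In TPM they were at -0.03 and -0.05. Wdr12 itself fell in the deposited values (-0.72 ± 0.08, adjusted p = 7.17e-07) and was at 0.28 and 0.68 under median-ratio and quantile scaling. Rrs1, needed to bring the smallest ribosomal RNA into the particle, changed by -0.73 ± 0.12 and by 0.47 and 0.28 under median-ratio and quantile scaling.

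The 4 scaffold genes had changes from -0.05 to 0.77, and 3 rose. Ncl, which encodes nucleolin, rose by 0.77 ± 0.06 (79.5 ± 1.65 to 136 ± 2.90 FPKM) in B vs. A and was positive in every scaling. Npm1 measured 1033, 998 and 1047 FPKM in A, 1509, 1511 and 1545 in B, 1672, 1945 and 1725 in C, and 911, 811 and 852 in D. It rose by 0.57 ± 0.07 (adjusted p = 1.67e-06), but was at -0.45 under quantile normalization. Of the runs of 31 bases in an annotated pseudogene transcript (GENCODE M21), a share of at least 0.5 was also in the gene's own transcripts for 2 pseudogenes of Npm1, 4 of Nop56 and 1 of Fbl, so how shared reads of these 3 genes were assigned is uncertain. Nolc1, a chaperone of snoRNPs, was at -0.05 ± 0.07 (adjusted p = 0.532; 1.17 under median-ratio scaling), and Mybbp1a rose by 0.41 ± 0.06, positive in every scaling. Myc itself measured 8.49, 9.99 and 7.74 FPKM in A, 2.09, 2.29 and 2.74 in B, 2.52, 2.36 and 2.18 in C, and 12.9, 14.8 and 12.6 in D. It fell by 1.53 (SE 0.10, adjusted p = 2.82e-09), with a negative sign in every scaling and an adjusted p of 0.175 under quantile normalization (-0.16). All libraries of B and C were below those of A, and those of D were above them.

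**Figure D2:**
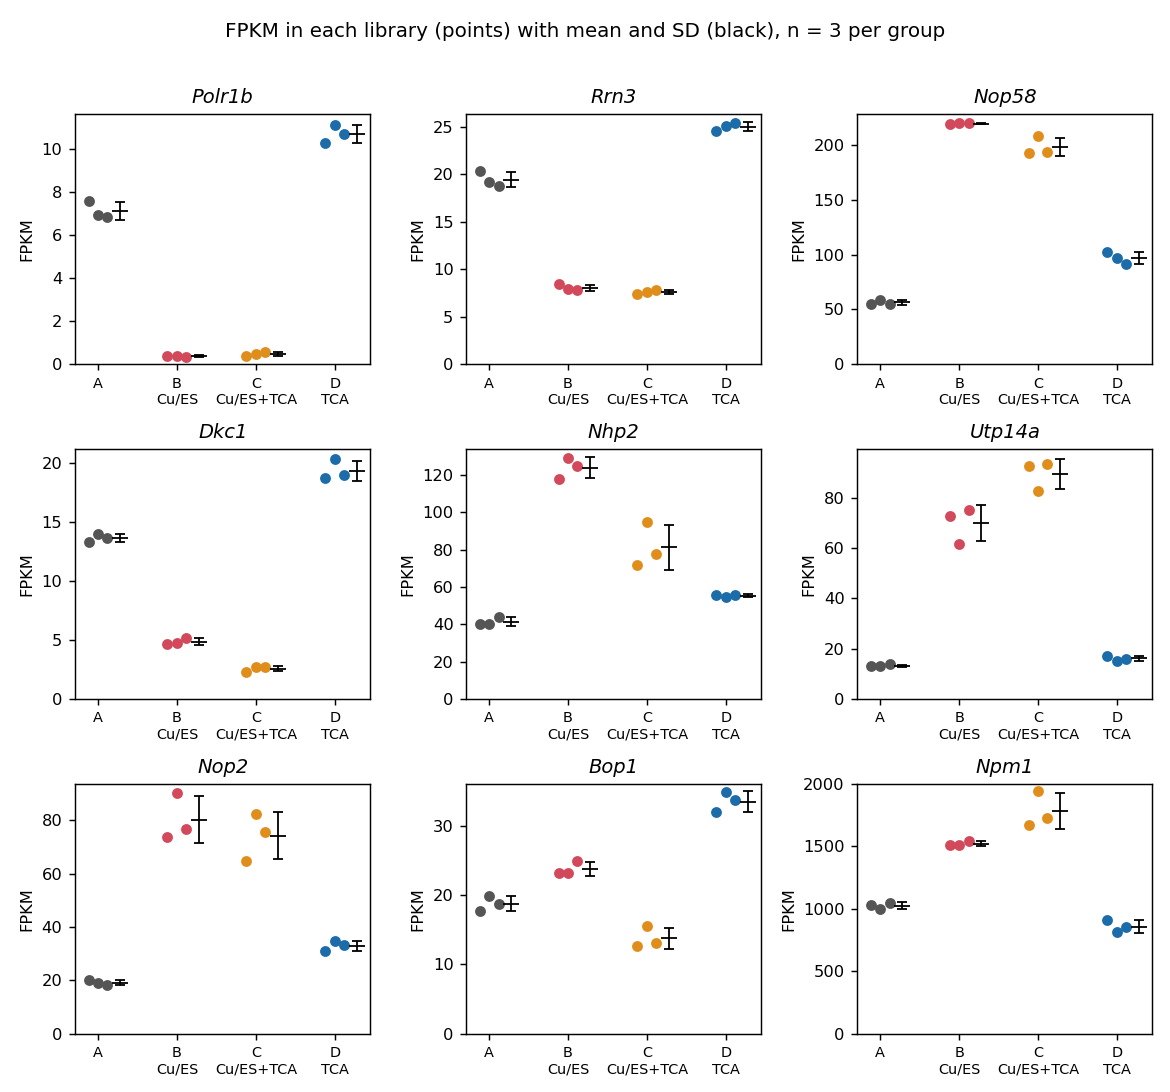
FPKM (y axis, linear, from 0) of 9 of the genes in each library of groups A, B, C and D (x axis); coloured points are libraries and the black mark with its bar is the mean ± SD of 3 libraries. Polr1b, Rrn3 and Dkc1 were low in groups B and C, Nop58, Nhp2, Utp14a, Nop2 and Npm1 were high there, and Bop1 was lowest in C.

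**Figure D3:**
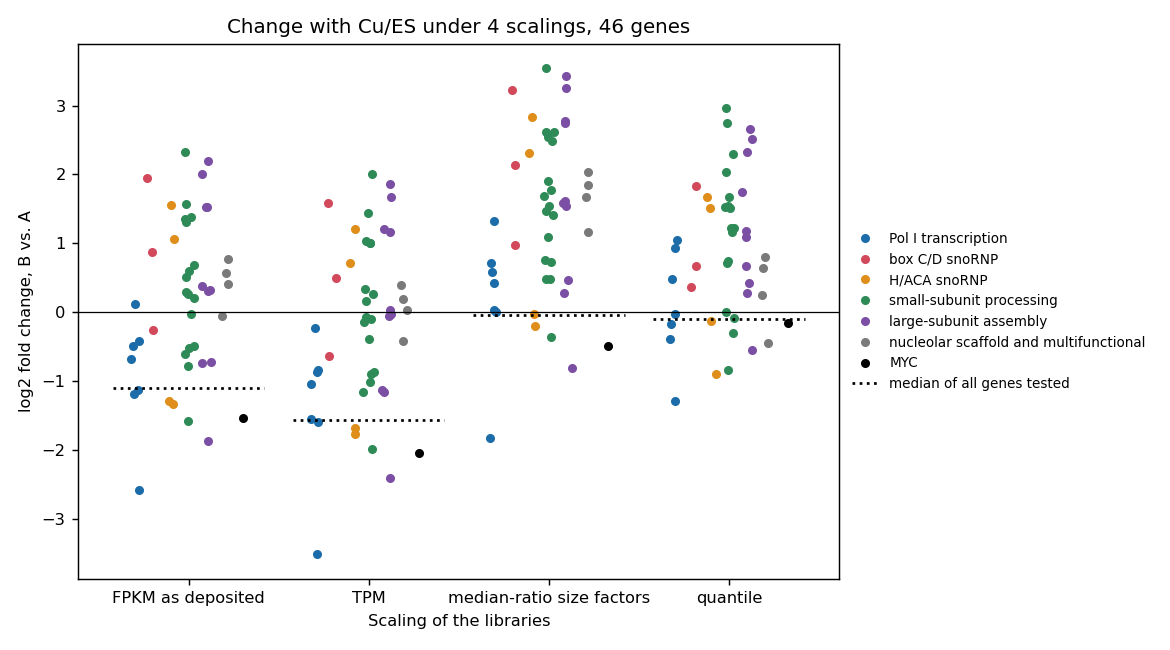
Log2 fold change in B vs. A (y axis) of the 46 genes under 4 scalings of the libraries (x axis), coloured by role, with the median of all tested genes as a dotted line. That median moved from -1.10 in the deposited values to -1.56 in TPM, -0.04 with median-ratio size factors and -0.10 with quantile normalization, and the Pol I genes sat lower than the large-subunit genes in median under each.

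The Pol I median lay below the small- and large-subunit medians in each scaling. The Pol I median in B vs. A was -0.67, -1.04, 0.43 and -0.03 in the deposited, TPM, median-ratio and quantile scalings, the small-subunit median was 0.30, -0.06, 1.55 and 1.23, and the large-subunit median was 0.36, 0.01, 1.60 and 1.14. Relative to all genes, the 46 genes lay above in each, by 1.38, 1.48, 1.55 and 0.87. Among 123 other ribosome biogenesis genes from a separate list, all tested, 23 were higher and 24 lower past both thresholds with a median of -0.03. Their 14 Pol I genes had 1 higher and 4 lower and a median of -0.78. Their 56 large-subunit genes had 13 higher and 13 lower and a median of 0.35. Their 43 small-subunit genes had 8 higher and 6 lower and a median of -0.01. Their 8 box C/D genes had 1 higher and 1 lower and a median of -0.52, where that of the members was 0.87. The 2 other H/ACA genes had 0 past both thresholds and a median of -0.46, against -0.11 for the members.

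The group D vs. A comparison asks what TCA did without Cu/ES. In limma 0 of the 46 genes passed both thresholds (0.0659% of tested genes were higher and 0.151% lower). With limma-voom on recovered reads 1 gene did, Rrp12, which was higher, and in limma 39 genes were higher and 1 lower at an unadjusted p under 0.05 (16.7% and 19.1% of tested genes). At the adjusted p alone 36 rose and 1 fell, against 10.5% and 11.5% of tested genes. The libraries of D were above those of A without overlap for 42 genes and below for 1 (20.7% and 23.5% of tested genes). The median log2 fold change was 0.45, with -0.01 for all genes, and 45 of 46 genes were positive in all 4 scalings.

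Each role had genes that rose. At the adjusted p 5 of 7 Pol I genes, 2 of 3 box C/D, 3 of 4 H/ACA, 15 of 17 small-subunit, 7 of 10 large-subunit and 3 of 4 scaffold genes rose, and so did Myc (0.57 ± 0.10, adjusted p = 0.00229), with class medians from 0.30 to 0.66. Among the genes given in full, the largest changes were in Rrp12 (0.91 ± 0.09, adjusted p = 5.86e-05, ratio of means 2.30) and Bysl (0.87 ± 0.08, adjusted p = 2.43e-05, from 6.88 ± 0.166 to 13.4 ± 0.713 FPKM). Next came Bop1 (0.80 ± 0.08, adjusted p = 6.38e-05), Nop58 (0.77 ± 0.06, adjusted p = 9.19e-06) and Nop2 (0.76 ± 0.09, adjusted p = 2.09e-04). Outside that list, Heatr1, a small-subunit gene, was at 0.76 ± 0.09 (adjusted p = 1.48e-04). Polr1b (0.53 ± 0.08) and Rrn3 (0.35 ± 0.06) also rose. Ubtf (0.30 ± 0.08, adjusted p = 0.0209) passed in 3 of 6 fits that left out 1 library, and not without library 1 or 3 of A or 2 of D. Polr1a (0.36 ± 0.11, adjusted p = 0.0335) passed in 1 of 6, the fit without library 1 of D, and its adjusted p was 0.0955 in TPM. Over these fits 30 to 34 of the 46 genes rose. Npm1 was the exception, falling by 0.26 (SE 0.07, adjusted p = 0.0159), and it was negative in every scaling, with an adjusted p of 0.140 under median-ratio scaling. Without library 1 or 3 of A, or library 2 or 3 of D, Npm1 did not pass and 0 genes fell. Pes1 (0.07, 95% confidence interval -0.05 to 0.19) and Fbl (0.15, -0.04 to 0.34) did not pass. Among the 123 other ribosome biogenesis genes, 61 rose at the adjusted p, and the median was 0.24. By role these were 1 of 14 Pol I, 2 of 8 box C/D, 0 of 2 H/ACA, 28 of 43 small-subunit and 30 of 56 large-subunit genes, with medians of 0.14, 0.16, 0.18, 0.28 and 0.30. Read totals were 38.3 to 39.1 M in A and 39.4 to 39.8 M in D. The 10 most abundant genes took 4.99% to 5.17% of the reads in A and 4.69% to 4.81% in D. The part of depth and of these shares in the D vs. A changes was not tested.

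The group C vs. B comparison asks what TCA did in cells also given Cu/ES. Again 0 genes passed both thresholds in limma (1.13% of tested genes were higher and 1.16% lower), with 7 higher and 15 lower at an unadjusted p under 0.05 (23.4% and 27.5% of tested genes), and limma-voom placed 1 lower, Rrp1b. At the adjusted p 7 rose and 13 fell, near the shares of 20.4% and 23.6% in all tested genes. In 7 genes the libraries of C were above those of B without overlap and in 16 below (22.0% and 27.2% of tested genes). The median was -0.07, with -0.03 for all genes. No test compared the roles. Of the 10 large-subunit genes all were negative and 5 fell, of the 4 H/ACA genes 2 fell, and of the 17 small-subunit genes 4 rose and 4 fell. Of the 10 negative large-subunit values, 7 were negative in every scaling.

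Wdr43 fell the most, with 27.6, 35.1 and 28.7 FPKM in B and 15.4, 19.7 and 16.6 in C (-0.79 ± 0.09, adjusted p = 2.53e-05). Bop1 fell from 23.2, 23.2 and 24.9 to 12.6, 15.5 and 13.1 FPKM (-0.76 ± 0.08, adjusted p = 9.35e-06). The C libraries lay below the B libraries in both genes. Dkc1 (-0.72 ± 0.08, adjusted p = 8.97e-06), Rrp1b (-0.68 ± 0.08, adjusted p = 2.57e-05), Gnl3 (-0.62 ± 0.10, adjusted p = 1.65e-04), Nhp2 (-0.61 ± 0.09, adjusted p = 9.55e-05), Nop56 (-0.44 ± 0.12, adjusted p = 0.00843) and Wdr75 (-0.38 ± 0.06, adjusted p = 2.09e-04) also fell, in every scaling, although the libraries of B and C overlapped for Nop56. Utp14a (0.35 ± 0.08, adjusted p = 0.00343), Ncl (0.28 ± 0.06, adjusted p = 0.00175) and Npm1 (0.22 ± 0.07, adjusted p = 0.0165) rose and were positive in every scaling, Npm1 with an adjusted p of 0.0611 under median-ratio scaling. The largest rise was in Ltv1, an export factor of the small subunit singled out after its value was seen (0.62 ± 0.07, adjusted p = 9.51e-06). Myc (-0.00 ± 0.10, 95% confidence interval -0.23 to 0.22), Polr1b (0.11, -0.07 to 0.28) and Rrn3 (-0.07, -0.20 to 0.07) did not pass the test. Library 2 of group C was the highest of its group for 28 of the 46 genes, and without it 8 genes rose and 15 fell. Among the 123 other genes, 19 rose and 50 fell at the adjusted p, with a median of -0.15. Of their 56 large-subunit genes, 8 rose and 23 fell, and 19 were positive.

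Whether the change with TCA differed with Cu/ES was tested as the interaction, the C vs. B change less the D vs. A change, which share no libraries. Of the 46 genes 8 had a lower change with Cu/ES past both thresholds in limma, where 1.73% of tested genes were lower and 1.75% higher, and 11 in limma-voom. In both tools 0 had a higher change past both thresholds, with 1 at an unadjusted p under 0.05 (22.6% of tested genes in limma). At the adjusted p 33 were lower (30 in limma-voom) and 1, Npm1, higher (0.48 ± 0.10, adjusted p = 0.00183), against 19.8% and 17.7% of tested genes. The median was -0.51, with 0.00 for all genes, and 39 genes were negative in all 4 scalings. By sign alone, not counted over all tested genes, the value was positive in D vs. A and negative in C vs. B in 32 genes, and positive in both in 13. By adjusted p, 11 genes rose in the former and fell in the latter, which held for 2.55% of tested genes.

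The 8 genes were Bop1 (-1.56 ± 0.11, adjusted p = 4.85e-06), Wdr43 (-1.35 ± 0.13), Gnl3 (-1.20 ± 0.13), Dkc1 (-1.19 ± 0.11), Nop56 (-1.10 ± 0.17), Bysl (-1.04 ± 0.11), Nhp2 (-1.03 ± 0.12) and Wdr75 (-1.01 ± 0.08), with adjusted p-values of at most 3.29e-04. Without library 2 of group B, 5 genes passed both thresholds. They came from the large-subunit, small-subunit, H/ACA and box C/D classes. No Pol I or scaffold gene and not Myc was among them, although 5 of 7 Pol I genes and Myc (-0.57 ± 0.15, adjusted p = 0.00832) were lower at the adjusted p. Of the 8, 7 overlap an exon of a gene on the opposite strand in GENCODE M21 (87.5%), as do 19 of the 46 genes (41.3%) and 29.4% of tested protein-coding genes. The strand setting of the counting is not given in the sources used here, so reads of such partners cannot be told apart. For Bop1 the partner Mroh1 had means of 12.7, 2.83, 5.29 and 5.73 FPKM in A to D, for Dkc1 Mpp1 had 24.1, 4.58, 4.07 and 22.7, for Gnl3 Pbrm1 had 22.6, 5.26, 4.93 and 20.8, and for Bysl Ccnd3 had 35.4, 3.23, 2.05 and 30.8. For Nop56 the partner Idh3b had 101, 82.2, 89.2 and 93.9 and for Nhp2 Rmnd5b had 16.3, 4.34, 4.91 and 18.0. The part of the partners was not tested. Of the 123 other ribosome biogenesis genes, 8 were lower past both thresholds, 71 were lower and 4 higher at the adjusted p, and the median was -0.43.

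**Figure D4:**
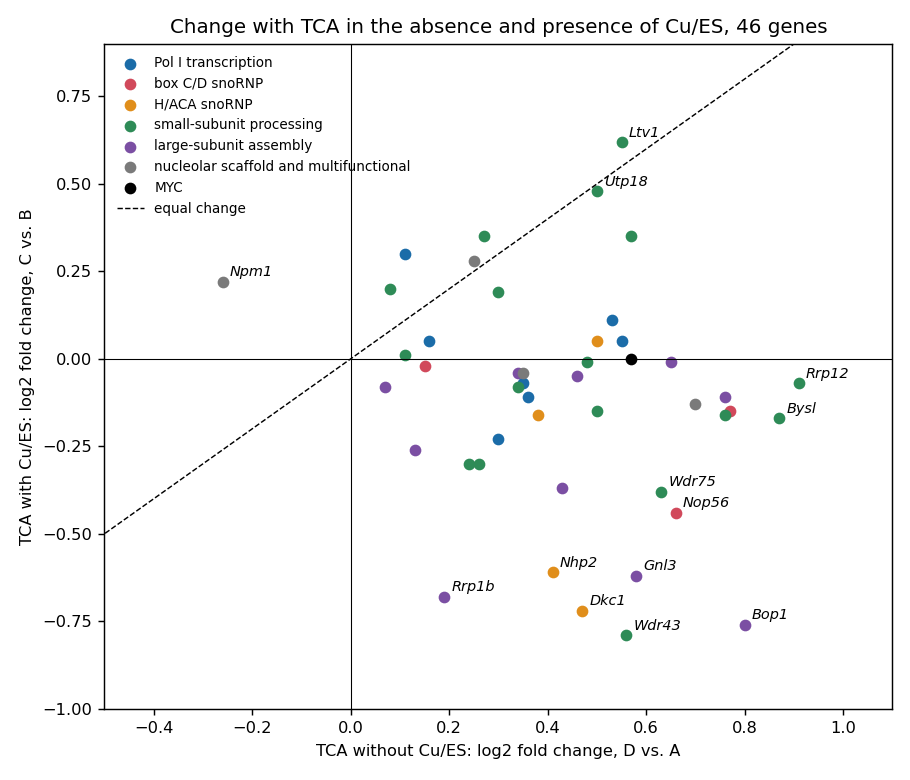
Log2 fold change with TCA in cells without Cu/ES (D vs. A, x axis) and with it (C vs. B, y axis) for the 46 genes, coloured by role; the dashed line marks equal change. In 40 genes the D vs. A value, with its sign, was above the C vs. B value, so most points lie right of the line. The 8 genes past both thresholds in the interaction are labelled, beside Npm1, Ltv1, Utp18, Rrp1b and Rrp12.

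The group C vs. D comparison gives the change with Cu/ES in cells that all had TCA, in libraries not used in B vs. A. Here 7 genes were higher and 15 lower past both thresholds, where 11.2% of tested genes were higher and 53.3% lower, and the median was -0.33 (-1.12 for all genes). All 8 genes lower in B vs. A were also lower in C vs. D, and 6 of the 12 higher genes were higher again: Nop58, Utp14a, Utp18, Nop2, Nop16 and Gnl2. They made up 8 of the 15 genes lower and 6 of the 7 genes higher in C vs. D. Over all tested genes, the share of B vs. A calls made again was 91.1% for lower and 86.5% for higher. Polr1b was at -3.0 ± 0.08 (adjusted p = 1.98e-13), Rrp1b at -2.73 ± 0.08, Dkc1 at -2.51 ± 0.08 and Myc at -2.10 ± 0.10, each negative in every scaling. Utp14a was at 2.40 ± 0.08 (adjusted p = 1.72e-12) and Npm1 at 1.05 ± 0.07 (adjusted p = 1.52e-09), both positive in every scaling. Nop56 (-1.36 ± 0.12), Bop1 (-1.23 ± 0.08) and Wdr43 (-1.85 ± 0.09) were past both thresholds here and negative in every scaling, Nop56 and Bop1 with adjusted p-values of 0.324 and 0.755 under median-ratio scaling.

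The spans of 7 of the 46 genes (15.2%) hold genes for small nucleolar RNAs in GENCODE M21, namely Taf1d, Nop56, Nop58, Wdr43, Gnl3, Ncl and Dkc1, against 2.20% of 10117 tested genes. Such guide RNAs are as a rule spliced out of the host transcript and act in the snoRNPs whose proteins are described above. The median change of the 7 hosts was -0.44 in C vs. B and 0.56 in D vs. A, with -0.07 and 0.41 for the other 39 genes, and the interaction was -1.10 against -0.49. Over all 223 tested hosts the medians were -0.10 in C vs. B, 0.01 in D vs. A and -0.12 in the interaction. In B vs. A the 7 hosts ran from -1.33 for Dkc1 to 1.95 for Nop58, with a median of -0.26. That median was 0.30 for the other 39 genes and -0.23 for all 223 tested hosts.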

How the data were processed

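RNA of 12 libraries was sequenced in the study, and the submitters' processing notes name fastp, HISAT2, HTSeq and the build GRCm39. The authors deposited 1 table of FPKM values, with replicates kept apart. FPKM scales each library to its total, so genes that take a larger share of the reads lower the values of the others. The part of this in the lower values of groups B and C was not tested. Steps between a gene's FPKM values gave whole reads (tolerance 0.05) for all 22212 genes above 0 in at least 2 libraries, used for depth and for limma-voom only.

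Groups follow the labels. FPKM values plus a pseudocount of 1 were log2-transformed for genes with a mean of at least 1 and fitted with limma 3.58.1 (R 4.3.3; empirical Bayes with trend, 8 residual degrees of freedom). The thresholds, an adjusted p of 0.05 and a log2 fold change of 1, are those of the study's methods. The limma step was tested on simulated counts in which few of 10615 genes were changed, as many up as down. It recovered 92 of 100 genes changed by 1.5 on the log2 scale and 100 of 100 changed by 3. False calls numbered 0. Most genes shifted in B vs. A, so this simulation cannot show how well calls are made there. Alternatives were another pseudocount, no filter, TPM, median-ratio and quantile scaling, limma-voom, the replicate block, only the groups compared, and leaving out each library. Figures were drawn with matplotlib 3.10.9 in Python 3.11.15.

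The members and lists were chosen with earlier results of these data known. A list of 32 genes was named in full by a rule that used these results. It held the genes with the highest and lowest B vs. A changes in each role, or all genes of the smaller roles. Added were every gene past both thresholds in C vs. B, D vs. A or the interaction, and core genes such as Npm1. The other 14 members are given by range and count unless a sentence singles them out. Sequences came from RefSeq tables on GRCm38.p6, and neighbouring genes from GENCODE M21. Intervals cover the spread between libraries only.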

Additional observations from a re-analysis of the deposited data

Results flagged for a closer look

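The change with TCA differed between cells with and without Cu/ES for 8 of the 46 genes, by the interaction term in limma with adjusted p-values from 4.85e-06 to 3.29e-04. The difference on the log2 scale, C vs. B less D vs. A, was -1.56 for Bop1, -1.35 for Wdr43, -1.20 for Gnl3, -1.19 for Dkc1, -1.10 for Nop56, -1.04 for Bysl, -1.03 for Nhp2 and -1.01 for Wdr75. For Bop1 the means were 18.8 FPKM in A and 33.5 in D, but 23.8 in B and 13.7 in C. For Bysl they were 6.88 in A and 13.4 in D, and 4.19 in B and 3.62 in C. Leaving out 1 library at a time, Bop1, Wdr43, Gnl3 and Dkc1 kept the call in 12 of 12 fits, Bysl in 11, Nop56 in 10, and Nhp2 and Wdr75 in 9.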

How the results depend on the processing

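In B vs. A the number of genes past both thresholds moved with scaling: 28 were higher with median-ratio and 21 with quantile scaling, and 13 were lower in TPM and 1 under either of the others. In C vs. B 1 gene, Rrp1b, became lower with a pseudocount of 0.1 or limma-voom. In D vs. A 1 gene, Rrp12, became higher with a pseudocount of 0.1, TPM or limma-voom, and 0 fell at the adjusted p under median-ratio scaling. In C vs. D 3 genes were higher in TPM, 22 with median-ratio and 11 with quantile scaling, with 4 lower under median-ratio and 6 under quantile scaling. Leaving out 1 library gave 5 to 9 genes past both thresholds in the interaction (5 without B replicate 2), 1 to 2 higher at the adjusted p there (2 without B replicate 3), and 0 to 1 lower in D vs. A. The share of calls that were higher, over all genes, went from 17.4% to 48.8% and 48.1% in C vs. D with median-ratio and quantile scaling, and in TPM from 49.4% to 62.4% in C vs. B and from 50.3% to 67.9% in the interaction.

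Signs differed between scalings for 21 of the 46 genes in B vs. A, 15 in C vs. D, 8 in C vs. B, 3 in the interaction and 0 in D vs. A. In B vs. A they turned under median-ratio scaling for Polr1c (0.59), Polr1e (0.43), Taf1d (0.71), Rrn3 (0.01), Ubtf (0.04), Nop56 (0.98), Utp3 (0.48), Wdr43 (0.76), Heatr1 (1.1), Bysl (0.48), Nob1 (0.73), Wdr12 (0.28), Rrs1 (0.47) and Nolc1 (1.17), under quantile normalization for Polr1e (0.94), Taf1d (0.48), Nop56 (0.37), Heatr1 (1.22), Bysl (0.75), Nob1 (0.01), Wdr12 (0.68), Rrs1 (0.28), Nolc1 (0.80) and Npm1 (-0.45), and in TPM for Polr1a (-0.23), Nop14 (-0.06), Utp6 (-0.09), Ltv1 (-0.14), Bop1 (-0.03) and Pes1 (-0.05). In C vs. D they turned under median-ratio scaling for Polr1a (0.85), Polr1c (0.76), Taf1d (0.57), Utp3 (0.57), Utp6 (1.04), Wdr75 (0.88), Heatr1 (0.18), Nob1 (0.16), Ebna1bp2 (0.80) and Nolc1 (0.32), under quantile normalization for Polr1a (0.51), Polr1e (0.43), Taf1d (0.31), Utp6 (0.67), Wdr75 (0.41), Heatr1 (0.21), Wdr12 (0.26), Ebna1bp2 (0.32) and Mybbp1a (-0.11), and in TPM for Nop14 (-0.09), Pes1 (-0.12) and Mybbp1a (-0.26). The cause was not tested.

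Same-numbered libraries had a mean correlation of deviations of 0.125 (-0.171 to 0.579), and 9 of 12 were closest to their own number. Between A and B the 3 same-numbered pairs were at 0.173, 0.174 and 0.142, while each other pair of groups had a value under 0.1. With the replicate block the counts past both thresholds were as without it, 12 higher and 8 lower in B vs. A, 0 in C vs. B and in D vs. A, 7 higher and 15 lower in C vs. D, and 8 lower in the interaction. By adjusted p alone, the block added Nop56 in B vs. A (0.0137) and Nop14 (0.0344) and Utp3 (0.0301) in C vs. B, and it changed no other call of the 46 genes. The interaction needs all 4 groups, so no fit of only the groups compared was run for it.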
